A study of Mus musculus with 48 samples.

Results

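The heat shock and endoplasmic reticulum (ER) chaperone genes were followed in mouse liver across 2 diets, both sexes and exposure to a dioxin mixture. The set holds 35 genes of the 49315 in the deposited table, found there by gene symbol. Of these, 21 belong to the heat shock side and 14 to the ER side. The heat shock side comprises 9 genes of the Hsp70 system, 7 of the Hsp90 system, 2 small heat shock proteins, the 2 mitochondrial chaperonin genes and the regulator Hsf1. The ER side comprises 8 genes of the system around BiP, 2 protein disulfide isomerases, 2 lectin chaperones, the regulator Xbp1 and the degradation-linked Herpud1. All 35 had at least 1 TPM in at least 6 libraries and entered the tests. Levels are in TPM, which scales a gene's reads by its length and by the total of its library.

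Livers came from male and female C57BL/6J mice, an inbred strain, on a high-fat diet (HFD) or a low-fat diet (LFD). Once a week the mice were dosed with a mixture of 3 dioxin-like compounds or with vehicle, and the study ended at week 12. Each dose combined 10 ng/kg of TCDD, the most studied dioxin, with 80 ng/kg of the furan PeCDF and 140 ng/kg of the biphenyl PCB126, which all activate the aryl hydrocarbon receptor. The 8 groups, with 6 livers each, were HFD males given the mixture, HFD vehicle males, LFD males given the mixture, LFD vehicle males, and the same 4 groups of females. Neither the labels nor the design text give the age of the mice, the fat content of the diets or the vehicle. Poly(A) RNA of the whole liver was measured, so a lower share of a cell type and less RNA per cell cannot be told apart. The labels give each library a replicate number and a numbered name, and do not say more of its origin. Each library is treated as 1 liver here, so the p-values rest on how these libraries spread, which may be technical.

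Heat shock proteins bind unfolded or partly folded proteins in the cytosol, nucleus and mitochondria and either refold them or pass them on for degradation. Their genes are driven by heat shock factor 1, the product of Hsf1, which binds heat shock elements built from inverted repeats of the unit GAA. The ER has its own chaperones for secreted and membrane proteins, which the liver makes in large amounts. When unfolded proteins build up there, the unfolded protein response raises these chaperones through the sensors IRE1, ATF6 and PERK, and part of it acts on ER stress elements in their promoters. IRE1 splices the Xbp1 mRNA, which a gene-level table does not show.

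The promoter windows of both lists carried different motifs, and stretches that show them are printed below. The motifs are those known from genes of these pathways, so their presence here describes the lists and is no independent support for them. Some windows of each list held none of these motifs. Windows of 250 bases before to 50 after the start site, from RefSeq on build GRCm38.p6, were at hand for 17 of the 21 heat shock members and 12 of the 14 ER members. The head-to-head heat shock element GAANNTTC, where N is any base, occurred in 11 of the 17 heat shock windows, in 0 of the 12 ER windows and in 9.04% of all 27025 genes with a window. Its tail-to-tail form TTCNNGAA occurred in 4 heat shock windows, in no ER window and in 9.6% of all genes. The 3-unit element, GAA, TTC and GAA with 2 bases of any kind between units, contains both forms and occurred in 4 heat shock windows (Hsph1, Chordc1, Hspd1 and Hspe1), in no ER window and in 0.662% of all genes. The sequences below run 5′ to 3′ along the gene, and capitals mark the letters GAA and TTC of a head-to-head or tail-to-tail match. Hspb1 is shown upstream of its start site at chr5:135887769-135887918 (plus strand), Hspa1a at chr17:34972157-34972306 (minus strand) and Hspa1b at chr17:34959239-34959388 (minus strand). The last line is a stretch at chr1:55088053-55088082 (plus strand) between the divergent start sites of Hspd1 and Hspe1, whose windows share the same match. The counts above include that match for each gene.
Hspb1 upstream: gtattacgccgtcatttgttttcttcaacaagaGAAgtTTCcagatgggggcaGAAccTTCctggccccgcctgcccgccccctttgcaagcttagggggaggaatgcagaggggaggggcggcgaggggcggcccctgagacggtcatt
Hspa1a upstream: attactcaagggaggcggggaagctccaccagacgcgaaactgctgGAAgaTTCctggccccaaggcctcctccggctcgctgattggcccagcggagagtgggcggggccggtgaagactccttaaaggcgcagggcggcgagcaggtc
Hspa1b upstream: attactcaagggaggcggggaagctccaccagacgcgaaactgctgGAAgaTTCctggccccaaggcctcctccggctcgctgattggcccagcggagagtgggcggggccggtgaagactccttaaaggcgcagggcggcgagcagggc
Hspd1 and Hspe1 shared: ggtccgTTCtaGAAccTTCcgGAAggcccc

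Hspb1 carried 2 head-to-head matches within this stretch, and Hspa1a and Hspa1b each carried 1 at the same distance. The upstream stretches of Hspa1a and Hspa1b were identical at 149 of 150 positions, so this region does not tell the copies apart. Among the ER members, the ER stress element (ERSE), CCAAT and CCACG with 9 bases of any kind between them, occurred in 7 of 12 windows, in no heat shock window and in 0.137% of all genes. The shorter ERSE-II, ATTGG and CCACG with 1 base between them, was found in the Herpud1 window only among the members, and in 0.0444% of all genes. The core TGACGTGG, to which spliced XBP1 and ATF6 can bind, was found in no member window and in 0.714% of all genes. All motifs were searched on both strands. The ERSE matches are shown in the direction of the motif, with the letters that it fixes in capitals.
Calr ERSE at chr8:84847075-84847093 (plus strand): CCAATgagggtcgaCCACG
Canx ERSE at chr11:50325800-50325818 (minus strand): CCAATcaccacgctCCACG
Creld2 ERSE at chr15:88819520-88819538 (minus strand): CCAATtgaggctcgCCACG
Dnajc3 ERSE at chr14:118937827-118937845 (plus strand): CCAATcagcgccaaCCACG
Hsp90b1 ERSE at chr10:86705533-86705551 (plus strand): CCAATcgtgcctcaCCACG
Hsp90b1 ERSE at chr10:86705638-86705656 (minus strand): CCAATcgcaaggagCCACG
Hspa5 ERSE at chr2:34772025-34772043 (plus strand): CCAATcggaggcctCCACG
Pdia6 ERSE at chr12:17266491-17266509 (plus strand): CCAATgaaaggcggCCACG
Herpud1 ERSE-II at chr8:94386377-94386387 (plus strand): ATTGGgCCACG

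These matches describe letters in a window and do not show that a factor was bound there. Hsp90b1 held 2 such elements, and the other genes listed held 1 each. Some members share long stretches with other transcripts. Of all 75-base words in the longest GENCODE M21 transcript, 68.0% also occurred in transcripts of other genes for Hspa8, 55.8% for Hspa1b, 54.2% for Hspa1a, 53.1% for Hsp90aa1, 47.3% for Hspb1, 33.7% for Hspd1 and 23.7% for Hspe1. Hspa1a and Hspa1b share most of theirs with each other, Hspa8 mainly with the gene model Gm15459, Hspb1 with Hsp25-ps1 and Hspd1 mainly with Hspd1-ps3. No source at hand says how the authors assigned such reads, so levels of these genes are uncertain. The ER members shared at most 2.72%.

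Each library had between 13180 and 14713 genes at 1 TPM or more, and TPM keeps no sequencing depth. Sex-linked transcripts fitted the labelled sex in all 48 libraries. Hepatocyte markers led in every group, with the 8 listed genes summing to between 62183 and 153211 TPM. Transcripts of 15 skeletal muscle genes added up to 24373 TPM in 1 HFD male given the mixture (replicate 6), 1911 TPM in 1 LFD female given it (replicate 3) and 9101 TPM in 1 LFD vehicle female (replicate 3), against at most 786 TPM in any other library. In the LFD female given the mixture, 6 adrenal cortex genes came to 1642 TPM as well. The calls that ended or were gained without these 3 libraries are given beside the results they touch.

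Differences between groups are log2 changes, that is, differences of group means of log2(TPM + 1), tested with limma over 15820 genes. P-values were adjusted over all of these genes, and a gene is called where the adjusted p was below 0.05. Levels are given as the lowest, the median and the highest TPM of the 6 livers of a group. Over the 48 libraries, the most abundant heat shock members were Hsp90ab1, the constitutive cytosolic Hsp90, with a median of 902 TPM, and Hspa8, the constitutive Hsp70, with 517 TPM. Calr, a calcium-binding lectin chaperone, led the ER members with 554 TPM, followed by Herpud1 with 498 TPM and Hsp90b1, the Hsp90 of the ER, with 469 TPM. The lowest members were the inducible Hsp70 genes Hspa1a, with 1.09 TPM, and Hspa1b, with 8.73 TPM, and between them Hspa4l, an Hsp110 relative, with 6.09 TPM. Hspa1a reached 1 TPM in 28 of the 48 libraries, so its log2 changes understate the ratio of its levels. Between the highest and the lowest library the ratio was 18.1 for Hspa1b and 7.21 for Hyou1, an ER member of the large Hsp70 class, but 1.57 for Hsf1.

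The first question was how the diet moved both lists in males. In vehicle males, 19 of the 21 heat shock members rose on the HFD and none fell, beside 25.6% of all genes called higher and 5.82% called lower. In males given the mixture, 16 of 21 rose and none fell, beside 31.7% of all genes higher and 6.92% lower. Of the 14 ER members, 1 rose (Creld2) and 1 fell (Xbp1) in vehicle males, and 1 fell (Xbp1 again) in males given the mixture. The median log2 change of the heat shock members was 0.44 with the mixture and 0.52 with vehicle, that of the ER members -0.07 and 0.11, and that of all genes 0.15 and 0.11. Trimmed-mean (TMM) scaling set the median of all genes near 0 and left heat shock medians of 0.22 and 0.37. With that scaling 10 heat shock members rose and 1 (Hspb8) fell in males given the mixture, where 2 ER members (Hsp90b1 and Xbp1) fell, and 18 heat shock members rose and none fell in vehicle males.

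Hspb1 (chr5:135887919-135889563, plus strand), a small heat shock protein that holds unfolded proteins and binds actin, changed most. It stood at 84.8, 92.3 and 103 TPM in HFD males given the mixture, against 15.1, 22.2 and 30.8 TPM in LFD males given it. In vehicle males it stood at 56.6, 68.8 and 98.4 TPM on the HFD, against 14.3, 18.8 and 21.5 TPM on the LFD. In both comparisons every HFD liver was above every LFD liver. The log2 changes were 2.05 ± 0.18 (SE, adjusted p = 7.95e-12) with the mixture and 1.90 ± 0.18 (SE, adjusted p = 5.81e-11) with vehicle. The other small heat shock gene, Hspb8, whose product works with Bag3 in removing damaged proteins, was not called in males, with -0.08 and 0.25 (adjusted p = 0.555 and 0.0504).

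In the Hsp70 system all 9 genes rose in vehicle males and 6 rose in males given the mixture. Hspa1b (chr17:34956436-34959238, minus strand), a stress-inducible Hsp70, stood at 5.9, 11.8 and 33.8 TPM in HFD males given the mixture, against 2.99, 5.81 and 12.6 TPM in LFD males given it. With vehicle it stood at 10.2, 22.8 and 37.9 TPM in HFD males, against 4.2, 6.73 and 10.3 TPM in LFD males. The ranges overlapped in both comparisons, and the log2 change was 0.86 ± 0.41 (SE, adjusted p = 0.0981) with the mixture and 1.43 ± 0.41 (SE, adjusted p = 0.00657) with vehicle, so the call was made in vehicle males alone. Hspa1a (chr17:34969190-34972156, minus strand), its near-identical neighbour, stood at 0.984, 2.61 and 3.85 TPM in HFD males given the mixture, against 0.43, 0.521 and 1.5 TPM in LFD males given it, and changed by 0.96 ± 0.25 (SE, adjusted p = 0.00194) on the log2 scale. In vehicle males it stood at 1.29, 2.42 and 6.58 TPM on the HFD, against 0.583, 0.945 and 1.68 TPM on the LFD, a change of 0.88 ± 0.25 (SE, adjusted p = 0.00561). These ranges also overlapped, and this pair has low levels and shared sequence.

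Hsph1 (chr5:149614287-149636376, minus strand) encodes Hsp110, which exchanges nucleotides on Hsp70. It stood at 13.4, 20.2 and 30.3 TPM in HFD males given the mixture, against 8.06, 10.6 and 17.6 TPM in LFD males given it. With vehicle it stood at 18.3, 27.3 and 32.5 TPM in HFD males, against 7.88, 11.9 and 16.6 TPM in LFD males, where the groups did not overlap. Its log2 changes were 0.82 ± 0.23 (SE, adjusted p = 0.00342) with the mixture and 1.14 ± 0.23 (SE, adjusted p = 1.05e-04) with vehicle. Dnaja1, an Hsp40 that delivers clients to Hsp70, rose by 0.53 and 0.85 on the log2 scale (adjusted p = 8.26e-06 and 6.62e-10). Bag3, a co-chaperone of Hsp70 in selective autophagy, rose by 0.61 and 0.84 (0.00526 and 2.28e-04). The Hsp110 relatives Hspa4 and Hspa4l rose by between 0.39 and 0.57 in both comparisons. Dnajb1, an Hsp40 that takes part in breaking up aggregates, and the constitutive Hspa8 were called in vehicle males, at 0.69 ± 0.18 (SE, adjusted p = 0.00277) and 0.36 ± 0.11 (SE, adjusted p = 0.00792). In males given the mixture their changes were 0.36 (adjusted p = 0.119) and 0.26 (0.0518).

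All 7 genes of the Hsp90 system were called higher in males with and without the mixture, and with TMM scaling 3 of the calls with the mixture ended. Hsp90aa1 (chr12:110690605-110702728, minus strand), the inducible Hsp90, stood at 98.9, 126 and 169 TPM in HFD males given the mixture, against 53.6, 66.8 and 75.9 TPM in LFD males given it. In vehicle males it stood at 105, 143 and 159 TPM on the HFD, against 54.9, 60.9 and 91.1 TPM on the LFD. Neither pair of groups overlapped, and the log2 changes were 0.98 ± 0.17 (SE, adjusted p = 9.03e-06) and 1.07 ± 0.17 (SE, adjusted p = 2.62e-06). The constitutive Hsp90ab1 rose by 0.44 and 0.50, Chordc1, a zinc-binding partner of Hsp90, by 0.73 and 0.67, and Cacybp, the calcyclin-binding protein, by 0.61 and 0.56, with the mixture first and vehicle second. Stip1, which links Hsp70 to Hsp90, Ahsa1, which activates the Hsp90 ATPase, and Fkbp4, an immunophilin of steroid receptor complexes, rose by between 0.34 and 0.46. The mitochondrial chaperonin Hspd1 and its partner Hspe1 rose by 0.20 and 0.36 with the mixture and by 0.36 and 0.52 with vehicle. In males given the mixture, TMM scaling ended the calls of Ahsa1 (0.13, adjusted p = 0.196), Stip1 (0.17, 0.196), Fkbp4 (0.12, 0.284) and Hspe1 (0.15, 0.229), and that of Bag3 in the Hsp70 system (0.40, 0.0734). Hspd1 was then at -0.01 (adjusted p = 0.899), so its direction there depends on the scaling. In vehicle males that scaling ended the call of Hspa8 alone among the heat shock members (0.21, adjusted p = 0.148). Without the 3 libraries rich in muscle transcripts, Hspa8 was called with the mixture as well (0.26, 0.048) and Hspb8 was called with vehicle (0.25, 0.0441). Hsf1 itself was not called, with 0.14 and 0.12 (adjusted p = 0.231 and 0.326).

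**Figure D1:**
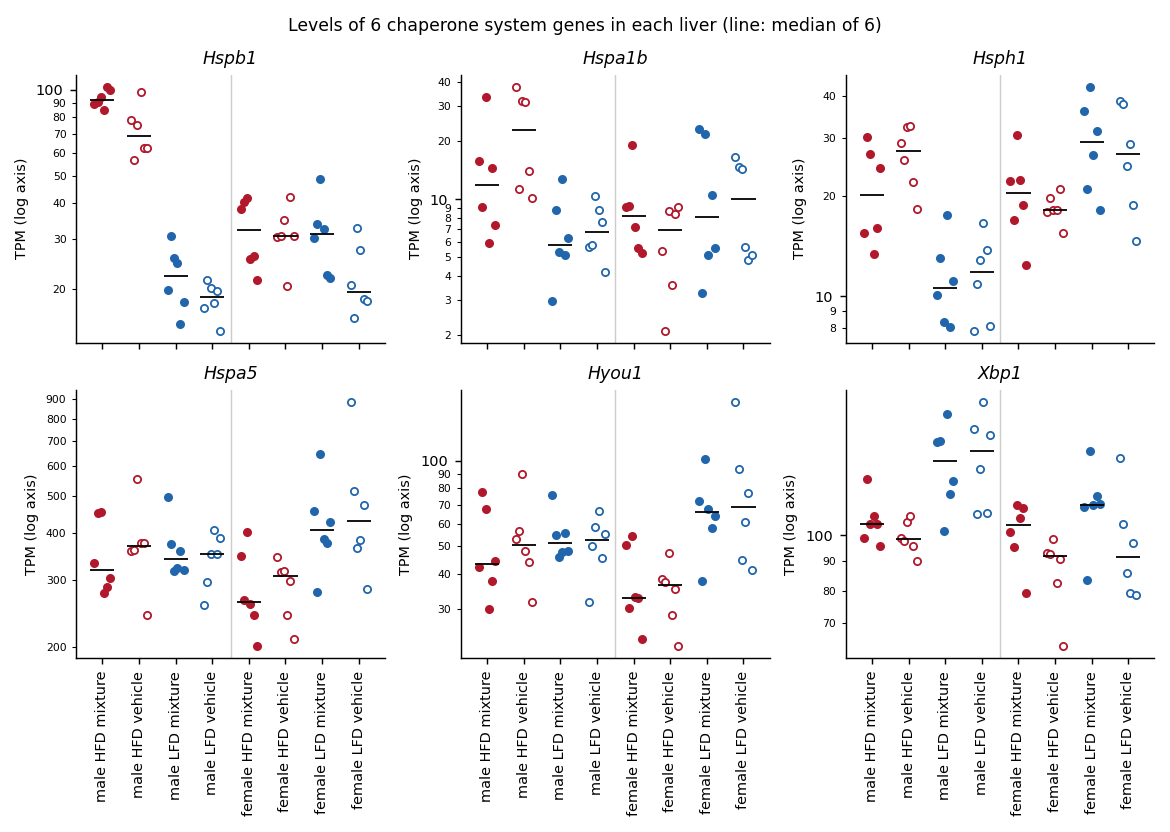
TPM of 6 genes in each of the 48 livers on a log axis, by sex, diet and exposure, with filled points for the mixture, open points for vehicle, red for HFD and blue for LFD, and a line at the median of 6. Hspb1 in HFD males stands above all other groups, whereas Hspa5 and Hyou1 overlap between diets in males and have lower medians on the HFD in females.

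Few ER members moved in males. Hspa5 (chr2:34771970-34777547, plus strand) encodes BiP, the Hsp70 of the ER, which also holds the stress sensors inactive. It stood at 278, 319 and 453 TPM in HFD males given the mixture, against 318, 341 and 496 TPM in LFD males given it. In vehicle males it stood at 243, 369 and 554 TPM on the HFD, against 259, 352 and 407 TPM on the LFD. The groups overlapped in both, and the log2 changes were -0.07 ± 0.20 (SE, adjusted p = 0.828) and 0.12 ± 0.20 (SE, adjusted p = 0.713). Creld2, a disulfide isomerase-like protein, rose in vehicle males (0.70 ± 0.27, SE, adjusted p = 0.0442), and leaving out any of 9 of the 12 libraries ended that call, with an adjusted p of 0.143 without replicate 3 of the HFD vehicle males. TMM scaling ended it as well (0.138). With the mixture its change was 0.29 (adjusted p = 0.429). Xbp1 (chr11:5520659-5525893, plus strand), the transcription factor of the IRE1 branch, fell. It stood at 90.0, 98.5 and 108 TPM in HFD vehicle males, against 109, 140.5 and 172 TPM in LFD vehicle males, where the groups did not overlap. With the mixture it stood at 95.6, 105 and 126 TPM on the HFD, against 102, 135 and 164 TPM on the LFD. The log2 changes were -0.31 ± 0.13 (SE, adjusted p = 0.0438) with the mixture and -0.45 ± 0.13 (SE, adjusted p = 0.0052) with vehicle. The call with the mixture ended without the 3 libraries rich in muscle transcripts (adjusted p = 0.081), and without any of 8 of its 12 libraries alone, with 0.129 without replicate 4 of LFD males on the mixture.

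Markers of other liver cells moved with the diet in males. The 8 stellate cell genes summed to 289.9 to 724 TPM in HFD males given the mixture, against 116 to 166 TPM in LFD males given it, and to 249.5 to 317 TPM in HFD vehicle males, against 136 to 179 TPM in LFD vehicle males. Of these 8, 7 rose with the mixture and 6 with vehicle, beside 31.7% and 25.6% of all genes called higher. The same shares stand beside the macrophage and adipocyte counts that follow. The 8 macrophage genes summed to 394 to 526 TPM in HFD males given the mixture, against 130.3 to 279 TPM in LFD males given it, with 5 genes higher. In vehicle males they summed to 356 to 575 TPM on the HFD, against 183 to 442 TPM on the LFD, with 3 genes higher, a count near the share of all genes. The 6 adipocyte genes summed to 38.5 to 159.7 TPM in HFD males given the mixture, against 3.84 to 21.1 TPM in LFD males given it, and to 42.1 to 341 TPM in HFD vehicle males, against 3.89 to 26.7 TPM in LFD vehicle males, and the groups overlapped in neither. Of the 3 adipocyte genes tested, 2 rose in each comparison. The 6 cholangiocyte genes had a median sum of 248 TPM, with a range of 73.0 to 528 TPM, in HFD males given the mixture, against 62.8 TPM and 46.1 to 76.9 TPM in LFD males given it. With vehicle the median sum was 111 TPM in HFD males, against 71.9 TPM in LFD males. The 8 hepatocyte genes summed to 62183 to 87317 TPM in HFD males given the mixture, against 101302 to 116088 TPM in LFD males given it, with 5 lower, and to 77671 to 88317 TPM in HFD vehicle males, against 98471 to 146791 TPM in LFD vehicle males, with 4 lower. Of all genes, 6.92% were called lower with the mixture and 5.82% with vehicle. In no male group was a gene of the stellate, macrophage, cholangiocyte or hepatocyte lists at 0 in all 6 livers, and 1 of the 6 adipocyte genes was at 0 in all HFD vehicle males. Their part in the rise of the heat shock genes was not tested. Without 6 libraries with muscle or adrenal transcripts, an alternative added after the data were seen, 16 heat shock members rose with the mixture and 20 with vehicle.

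In females few members of either list were called. In vehicle females, 4 of 14 ER members fell on the HFD and none rose, while 4 heat shock members rose and 3 fell, beside 14.4% of all genes higher and 13.5% lower. In females given the mixture, 3 ER and 2 heat shock members fell and none rose, beside 11.5% of all genes higher and 7.74% lower. The median log2 change of the ER members was -0.20 with the mixture and -0.27 with vehicle, that of the heat shock members -0.06 and -0.00316, and that of all genes -0.000867 and -0.01. In vehicle females the heat shock counts were near the shares of all genes, as was the count of heat shock members lower with the mixture.

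Hspa5 stood at 201, 263 and 401 TPM in HFD females given the mixture, against 280.2, 406 and 645 TPM in LFD females given it. In vehicle females it stood at 210.3, 308 and 345 TPM on the HFD, against 285, 429 and 884 TPM on the LFD. The groups overlapped, and no HFD liver was above the LFD median in either comparison. The log2 changes were -0.57 ± 0.20 (SE, adjusted p = 0.0391) and -0.67 ± 0.20 (SE, adjusted p = 0.00983). Hyou1 (chr9:44379490-44392369, plus strand), which exchanges nucleotides on BiP, stood at 23.5, 32.9 and 54.4 TPM in HFD females given the mixture, against 37.7, 65.7 and 101 TPM in LFD females given it. With vehicle it stood at 22.3, 36.4 and 47.3 TPM on the HFD, against 41.2, 68.8 and 161 TPM on the LFD. Its log2 changes were -0.82 ± 0.26 (SE, adjusted p = 0.0217) and -1.04 ± 0.26 (SE, adjusted p = 0.00203), and here too no HFD liver was above the LFD median. Dnajc3, an ER Hsp40 that is also an inhibitor of the kinase PERK, fell in both (-0.32 and -0.40, adjusted p = 0.028 and 0.00316). Manf, a small ER protein that binds BiP, was called in vehicle females (-0.62 ± 0.24, SE, adjusted p = 0.0459). With the mixture its change was -0.62 (adjusted p = 0.0606).

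These ER calls rested on few libraries. Without LFD mixture female 3, which held muscle and adrenal transcripts, none of the 3 ER calls with the mixture remained, and the changes were -0.44 for Hspa5 (adjusted p = 0.13), -0.69 for Hyou1 (0.0706) and -0.29 for Dnajc3 (0.0621). Leaving out replicate 6 of the HFD females given the mixture also left no ER call and 2 of the 5 members called. The members called numbered 3 without replicate 2 or 4 of that group or replicate 1 or 3 of the LFD group, 9 without replicate 3 of the HFD group and 8 without replicate 2 of the LFD group. In vehicle females, replicate 1 of the LFD group held the highest level of all 48 libraries for 13 of the 14 ER members, among them Hspa5 (884 TPM), Hyou1 (161 TPM), Dnajb9 (221 TPM) and Creld2 (205 TPM). Without it, 7 members were called in place of 11, with 2 ER members left, and the change of Hspa5 was -0.48 (adjusted p = 0.0584) and that of Manf -0.40 (0.202). Without the 3 libraries rich in muscle transcripts Creld2 was called in vehicle females as well (-0.85, adjusted p = 0.0139). Without replicate 2 of the LFD vehicle females 7 members were called as well, with 3 ER members left.

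On the heat shock side of the females, Hspb8 and Stip1 fell with and without the mixture. Hspb8 (chr5:116408491-116422864, minus strand) stood at 150.2, 159.8 and 167 TPM in HFD females given the mixture, against 201, 218 and 252 TPM in LFD females given it, and at 142, 166 and 189 TPM in HFD vehicle females, against 194, 224 and 269 TPM in LFD vehicle females. The groups did not overlap in either comparison, and the log2 changes were -0.49 ± 0.10 (SE, adjusted p = 2.27e-04) and -0.43 ± 0.10 (SE, adjusted p = 8.53e-04). Stip1 fell by 0.42 with the mixture and by 0.29 with vehicle on the log2 scale (adjusted p = 0.00178 and 0.0252). In vehicle females Hspa8 also fell (-0.31 ± 0.11, SE, adjusted p = 0.0234). Hspb1 (0.50), Hspe1 (0.51), Fkbp4 (0.37) and Hspd1 (0.25) rose there, with adjusted p of 0.0357, 7.40e-06, 3.01e-04 and 0.00357. In vehicle females the call of Hspb1 ended without any of 7 of the 12 libraries, with an adjusted p of 0.11 without replicate 5 of the HFD group. That of Stip1 ended without any of 5, with 0.0879 without replicate 4 of the LFD group, and that of Hspa8 without any of 2, with 0.0713 without replicate 2 of the LFD group. With the mixture none of the 4 that rose was called, although Hspd1 was without the 3 libraries rich in muscle transcripts (0.21, adjusted p = 0.0218), and Hspb1 stood at 21.5, 32.1 and 41.9 TPM on the HFD, against 21.8, 31.3 and 48.8 TPM on the LFD. Hepatocyte marker sums were lower on the HFD in females as well, at 86693 to 98462 TPM with vehicle, against 128749 to 153211 TPM on the LFD, and the 7 endothelial genes summed to 121 to 147 TPM, against 148 to 253 TPM. With the mixture the hepatocyte sums were 77105 to 98322 TPM in HFD females, against 101277 to 137753 TPM in LFD females, and the cholangiocyte medians 113 TPM, against 64.6 TPM. Endothelial sums overlapped with the mixture, at 134 to 173 TPM on the HFD, against 163 to 197 TPM on the LFD. The cholangiocyte medians with vehicle were 109 TPM on the HFD, against 72.3 TPM on the LFD. The part of these markers in the falls was not tested.

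**Figure D2:**
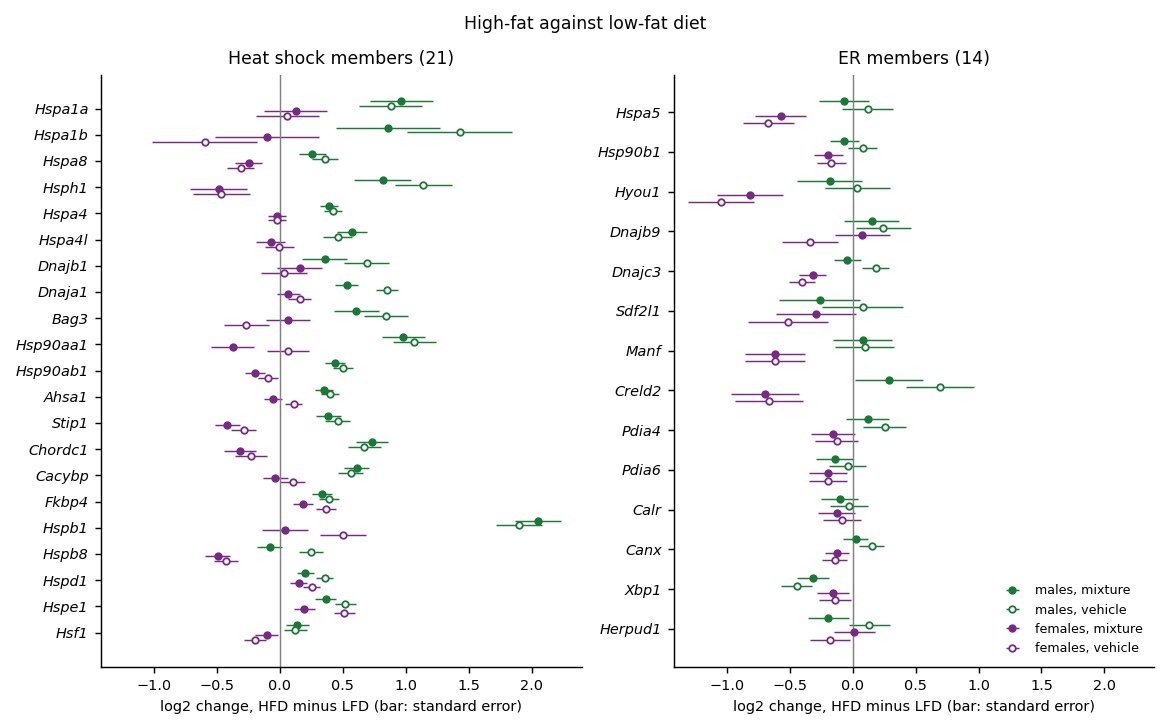
Log2 change between diets (HFD minus LFD) for the 21 heat shock and 14 ER members, with standard errors, in males (green) and females (purple), filled for the mixture and open for vehicle. Nearly all heat shock members lie right of 0 in males, and Hspa5, Hyou1, Manf and Creld2 lie left of 0 in females.

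The diet effect was then compared between the sexes as an interaction, the change in males minus the change in females. Averaged over both exposures, 17 of 21 heat shock and 5 of 14 ER members had a higher change in males and none a lower one, beside 26.6% of all genes higher and 6.58% lower. The median of the heat shock members was 0.58, that of the ER members 0.32 and that of all genes 0.13. With the mixture alone the counts were 13 and 0, beside 13.4% of all genes higher and 3.65% lower. With vehicle alone they were 15 and 4, beside 14.8% higher and 3.47% lower. The 4 ER calls with vehicle were 2 with TMM scaling, where Hspa5 (adjusted p = 0.114) and Hyou1 (0.0755) were no longer called. They were also 2 without replicate 4 or 6 of the HFD vehicle females, replicate 1 or 2 of the LFD vehicle females, replicate 2 or 3 of the HFD vehicle males or replicate 1 of the LFD vehicle males. The largest differences among the heat shock members were those of Hspb1 (1.71 ± 0.18, SE, adjusted p = 1.57e-09), Hspa1b (1.49 ± 0.41, SE, adjusted p = 0.00447), Hsph1 (1.45 ± 0.23, SE, adjusted p = 2.67e-06) and Hsp90aa1 (1.18 ± 0.17, SE, adjusted p = 5.68e-07).

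Stip1 and Hspa8, which rose in vehicle males and fell in vehicle females, differed by 0.77 and 0.59 (adjusted p = 7.13e-08 and 3.20e-05). Fkbp4, Hspd1 and Hspe1 rose in vehicle animals of both sexes and were not called in the difference, at 0.09, 0.08 and 0.09, with adjusted p of 0.414, 0.385 and 0.443. The standard errors of these 3 were at most 0.08. The 5 ER members called were Creld2 (1.17 ± 0.27, SE, adjusted p = 7.11e-04), Hyou1 (0.86 ± 0.26, SE, adjusted p = 0.00931), Manf (0.70), Hspa5 (0.65) and Dnajc3 (0.43). With TMM scaling, 15 heat shock and 2 ER members were higher and 1 ER member (Xbp1) was lower, and Hspa5, Manf and Dnajc3 were no longer called. With the mixture alone that scaling left 8 of the 13 calls, and without the 3 libraries rich in muscle transcripts Hspa8 was not called there (0.41, adjusted p = 0.0512).

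Averaged over the 4 combinations of sex and exposure, 15 heat shock members were higher on the HFD and 1 (Hspb8) was lower, while 4 ER members were lower, beside 35% of all genes higher and 15.5% lower. The smallest p-values belonged to Hspb1 (1.12 ± 0.09, SE, adjusted p = 6.10e-14) and Hspe1 (0.40 ± 0.04, SE, adjusted p = 6.99e-11) on the heat shock side and to Xbp1 (-0.26 ± 0.06, SE, adjusted p = 4.50e-04) and Hyou1 (-0.50 ± 0.13, SE, adjusted p = 0.00122) on the ER side. Hspa5 and Dnajc3 were the other ER calls, at -0.30 and -0.15 (adjusted p = 0.0118 and 0.0194). Hspa1a was called, at 0.51 ± 0.13 (SE, adjusted p = 7.10e-04), and Hspa1b was not, at 0.40 ± 0.21 (SE, adjusted p = 0.109). Without the 3 libraries rich in muscle transcripts Hspa1b was called too, at 0.52 (adjusted p = 0.0361), and without 6 libraries with muscle or adrenal transcripts at 0.55 (0.0412). The other 8 ER members were called in no diet comparison with the deposited scaling. They are Hsp90b1, Sdf2l1, the degradation-linked Hsp40 Dnajb9, the disulfide isomerases Pdia4 and Pdia6, the lectin chaperones Calr and Canx, and Herpud1. Sdf2l1 had a mean change of -0.25 ± 0.16 (SE, adjusted p = 0.202), Dnajb9 0.03 ± 0.11 (SE, adjusted p = 0.832) and Pdia4 0.02 ± 0.09 (SE, adjusted p = 0.853). With TMM scaling 13 heat shock members were higher and 1 lower, and 9 ER members were lower, with Hsp90b1 (-0.19), Manf (-0.36), Pdia6 (-0.24), Calr (-0.19) and Canx (-0.12) added.

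The level of each list in a liver was summarised as the mean log2(TPM + 1) of its members, as a description with no test. The heat shock mean was 6.05 ± 0.17 (SD, n = 6) in HFD males given the mixture, against 5.49 ± 0.12 in LFD males given it, and 6.15 ± 0.17 in HFD vehicle males, against 5.47 ± 0.11 in LFD vehicle males. The lowest HFD male liver, at 5.8, was above the highest LFD male liver, at 5.65. The ER mean of the same groups was 7.14 ± 0.23, against 7.19 ± 0.15, with the mixture and 7.20 ± 0.30, against 7.09 ± 0.23, with vehicle. In females the heat shock mean was 5.88 ± 0.18 on the HFD, against 5.97 ± 0.22 on the LFD, with the mixture and 5.81 ± 0.12, against 5.84 ± 0.17, with vehicle. The ER mean in females was 6.95 ± 0.27 on the HFD, against 7.25 ± 0.28 on the LFD, with the mixture and 6.93 ± 0.20, against 7.31 ± 0.48, with vehicle. The heat shock mean minus the ER mean was thus higher on average on the HFD in all 4 pairs of groups. For this difference the livers of both diets did not overlap in males given the mixture. They overlapped in vehicle males, in females given the mixture and in vehicle females. The shift was 0.62 (pooled SD 0.16) in males given the mixture and 0.57 (pooled SD 0.22) in vehicle males. In females the shift was 0.20 (pooled SD 0.14) with the mixture and 0.34 (pooled SD 0.31) with vehicle. Taken alone, the heat shock mean shifted by 0.56 in males given the mixture and by 0.68 in vehicle males, and the ER mean by -0.30 in females given the mixture and by -0.38 in vehicle females. These single shifts depended on the scaling. With TMM scaling, males given the mixture had a heat shock shift of 0.36 and an ER shift of -0.27, close to the ER shift of -0.32 in females given it. The difference between the lists was 0.63 in males given the mixture with that scaling. Without replicate 1 of the LFD vehicle females, the ER shift of vehicle females was -0.21 and the difference between the lists 0.21.

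**Figure D3:**
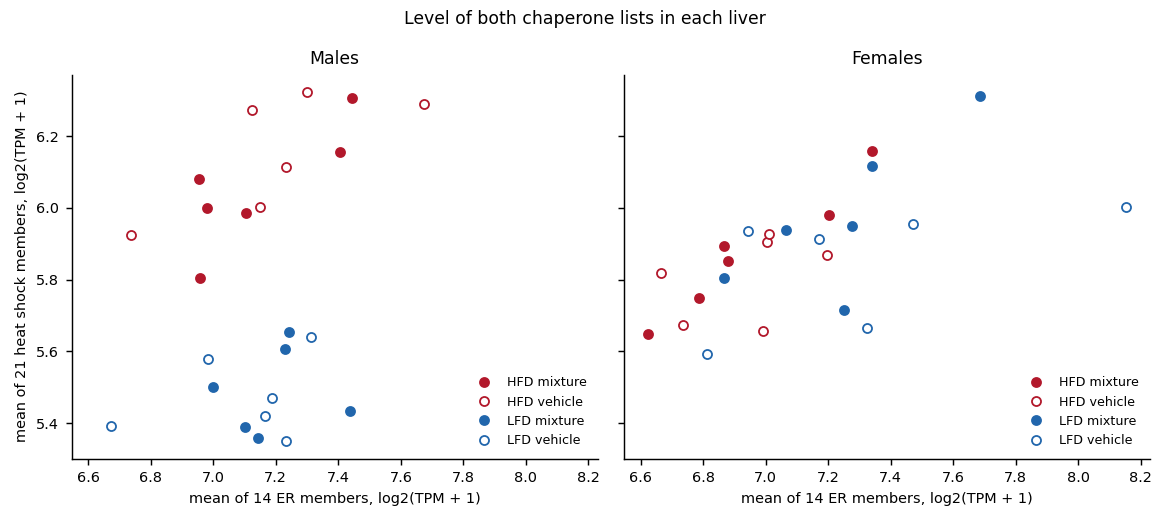
Mean log2(TPM + 1) of the 21 heat shock members (vertical) against that of the 14 ER members (horizontal), one point per liver, males left and females right, red for HFD, blue for LFD, filled for mixture and open for vehicle. HFD males lie above LFD males with no overlap on the vertical axis, and 1 LFD vehicle female stands apart at an ER mean of 8.15.

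Sex was compared within each diet and exposure. On the LFD, heat shock members were lower in males: 15 of 21 with the mixture, beside 16.6% of all genes lower and 4.92% higher, and 13 of 21 with vehicle, beside 17.1% lower and 6.61% higher. None was higher in males there. With TMM scaling 11 were lower with the mixture and 8 with vehicle. On the HFD the counts were 2 higher and 1 lower with the mixture, beside 9.73% and 5.56% of all genes, and 6 higher and none lower with vehicle, beside 8.26% and 3.53%. Of the ER members, Xbp1 was higher (0.50, adjusted p = 0.00224) and Dnajc3 (-0.39, 0.0051) and Creld2 (-0.88, 0.0139) were lower in LFD vehicle males, and none was called in the other 3 comparisons. There, 2, 1 and 3 of 14 had an unadjusted p under 0.05 in limma, in LFD mixture, HFD mixture and HFD vehicle animals, beside 33.1%, 28.2% and 24.5% of all genes. In LFD vehicle animals the calls of Dnajc3 (adjusted p = 0.0846) and Creld2 (0.0897) ended with only the groups compared. Without replicate 1 of the LFD vehicle females, which held the highest Creld2 level, 1 ER member was lower in males.

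Hsph1 had the largest such difference on the LFD with the mixture. It stood at 8.06, 10.6 and 17.6 TPM in LFD males given the mixture, against 18.1, 29.1 and 42.8 TPM in LFD females given it, with no overlap, and differed by -1.28 ± 0.23 (SE, adjusted p = 3.32e-05). With vehicle the change was -1.12 ± 0.23 (SE, adjusted p = 1.87e-04). Between HFD animals it was 0.02 with the mixture and 0.48 with vehicle (adjusted p = 0.972 and 0.17). Hspa8 stood at 340.4, 424 and 470.3 TPM in LFD males given the mixture, against 522, 688 and 945 TPM in LFD females given it (-0.73 ± 0.11, SE, adjusted p = 9.55e-07), again with no overlap. The highest Hsph1 and Hspa8 values belong to LFD mixture female 3, which held muscle and adrenal transcripts. That library had the highest level of all 48 for 7 of the 21 heat shock members. Without it, 14 heat shock members were lower in LFD males given the mixture, in place of 15. Hsp90aa1 was also below all LFD females with the mixture (-1.01, adjusted p = 1.29e-05). Chordc1, Stip1, Hsp90ab1, Hspa4l, Dnaja1, Cacybp, Ahsa1, Hspe1, Hspb8 and Hspd1 were lower in LFD males with and without the mixture, with log2 changes between -0.85 and -0.19. With TMM scaling the calls with vehicle ended for Ahsa1 (adjusted p = 0.36), Hspa4l (0.124), Hspb8 (0.0788), Hspd1 (0.358) and Hspe1 (0.337), and those with the mixture for Hspb8 (0.365), Hspd1 (0.364), Hspe1 (0.182) and Hsf1 (0.303). Without the 3 libraries rich in muscle transcripts, Hspd1 was not called with the mixture (-0.17, adjusted p = 0.0669), nor Hspe1 with vehicle (-0.22, 0.0584), while Hsp90b1 was called lower with vehicle (-0.34, 0.0304). Fkbp4 (-0.38) and Hsf1 (-0.27) were called on the LFD with the mixture alone. The 6 heat shock members not called in either were Hspa1a, Hspa1b, Hspa4, Dnajb1, Bag3 and Hspb1. On the HFD, Hspb1 was above every female liver of its exposure, with 1.55 ± 0.18 (SE, adjusted p = 1.44e-08) given the mixture and 1.18 ± 0.18 (SE, adjusted p = 7.45e-06) given vehicle. Hspa1b (1.67), Hspa1a (0.82), Bag3 (0.78), Hspb8 (0.31) and Hspa4 (0.28) were the other members higher in HFD vehicle males. With only the groups compared the calls of Hspb8 (adjusted p = 0.103) and Hspa1a (0.0864) ended. TMM scaling ended that of Hspb8 as well (0.126). With the mixture Hspa4 was higher (0.24, adjusted p = 0.022) and Fkbp4 lower (-0.23, 0.0395). The Hspa4 call there ended with TMM scaling (0.0843), and the Fkbp4 call with only the groups compared (0.112). Without the 3 libraries Hspd1 was lower there too (-0.18, 0.0471) and Pdia6 higher (0.43, 0.0424).

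Cell markers differed between the sexes on the LFD as well. The 7 endothelial genes summed to 109.8 to 136 TPM in LFD males given the mixture, against 163 to 197 TPM in LFD females given it, and to 105 to 134 TPM in LFD vehicle males, against 148 to 253 TPM in LFD vehicle females, with 6 of 7 lower in males in each. The 8 stellate cell genes summed to 116 to 166 TPM in males, against 182 to 297 TPM in females, with the mixture (6 lower) and to 136 to 179 TPM, against 186 to 413 TPM, with vehicle (2 lower). Neither list overlapped between the sexes. The 8 macrophage genes had median sums of 249 TPM in males, against 491 TPM in females, with the mixture and 255 TPM, against 471 TPM, with vehicle, with 7 of 8 lower in males in each. Of all genes, 16.6% were called lower in males with the mixture and 17.1% with vehicle, so the 2 stellate cell genes lower with vehicle were near that share. The part of these markers in the lower heat shock levels of LFD males was not tested.

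Averaged over the 4 strata, 2 heat shock members were higher in males and 12 lower, and 2 ER members were higher and 1 lower, beside 12.2% and 19% of all genes. The leading members were Hspa8 (-0.37 ± 0.05, SE, adjusted p = 3.86e-07) and Hspb1 (0.51 ± 0.09, SE, adjusted p = 1.93e-05), and on the ER side Pdia6, a disulfide isomerase (0.31 ± 0.07, SE, adjusted p = 0.0011), and Xbp1 (0.25 ± 0.06, SE, adjusted p = 0.00145). Hspb1 was called higher in males on the HFD only. In LFD animals given the mixture its change was -0.47 (adjusted p = 0.0619), which was called with the replicate block (0.0365), so this mean joins opposite directions. Xbp1 stood at 109, 140.5 and 172 TPM in LFD vehicle males, against 78.5, 91.6 and 137 TPM in LFD vehicle females, and the groups overlapped. Hspa5 did not pass (0.01 ± 0.10, SE, adjusted p = 0.947), and neither did Hspa1b (0.33 ± 0.21, SE, adjusted p = 0.242), while Hspa1a did (0.34 ± 0.13, SE, adjusted p = 0.0367). The calls of Hspa1a and Hsp90b1 ended without any of 17 and 20 of the 48 libraries. Without the 3 libraries rich in muscle transcripts, Hsp90aa1 (-0.20, adjusted p = 0.0633) and Hsp90b1 (-0.13, 0.0759) were not called in that mean. On the LFD with the mixture, TMM scaling gave 2 members higher and 11 lower, and on the HFD with the mixture 1 higher and 3 lower. Leaving out replicate 5 of the HFD females given the mixture lowered the 3 members called on the HFD with the mixture to 1.

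No member was called by limma for the dioxin mixture in any stratum or in their mean, where 0.0379% of all genes were called in LFD males, 0.0948% in HFD males, 0.0379% in LFD females, 0.0126% in HFD females and 0.0948% in the mean. At an unadjusted p under 0.05 the members numbered 1, 3, 7, 1 and 5 of 35 in the same order, beside 5.25%, 9.39%, 9.5%, 4.24% and 11.7% of all genes. The mixture effect did not differ between diets for any member by limma, beside 0.00632% of all genes called in each sex. At an unadjusted p under 0.05, 2 members in males and 1 in females differed, beside 7.32% and 4.64% of all genes. The median mean change was 0.03 for heat shock and -0.01 for ER members, and 0.02 for all genes.

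Among heat shock members the smallest p-values for the mean over the strata were those of Hspb1 (0.28 ± 0.09, SE, adjusted p = 0.227) and Hspe1 (0.10 ± 0.04, SE, adjusted p = 0.33). Hspb1 stood at 84.8, 92.3 and 103 TPM in HFD males given the mixture, against 56.6, 68.8 and 98.4 TPM in HFD vehicle males, and at 21.8, 31.3 and 48.8 TPM in LFD females given it, against 15.8, 19.5 and 32.8 TPM in LFD vehicle females. The groups overlapped in each, although every exposed liver was above the vehicle median in both comparisons. On the ER side, Herpud1, which helps to clear proteins from the ER for degradation, had -0.23 ± 0.08 (SE, adjusted p = 0.273) and Xbp1 0.13 ± 0.06 (SE, adjusted p = 0.427). Herpud1 stood at 358, 398 and 529 TPM in HFD males given the mixture, against 431, 524 and 726 TPM in HFD vehicle males. BiP (Hspa5) had a mean change of -0.04 ± 0.10 (SE, adjusted p = 0.925). The inducible Hspa1b had -0.06 ± 0.21 (SE, adjusted p = 0.945) and Hspa1a -0.09 ± 0.13 (SE, adjusted p = 0.843).

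**Figure D4:**
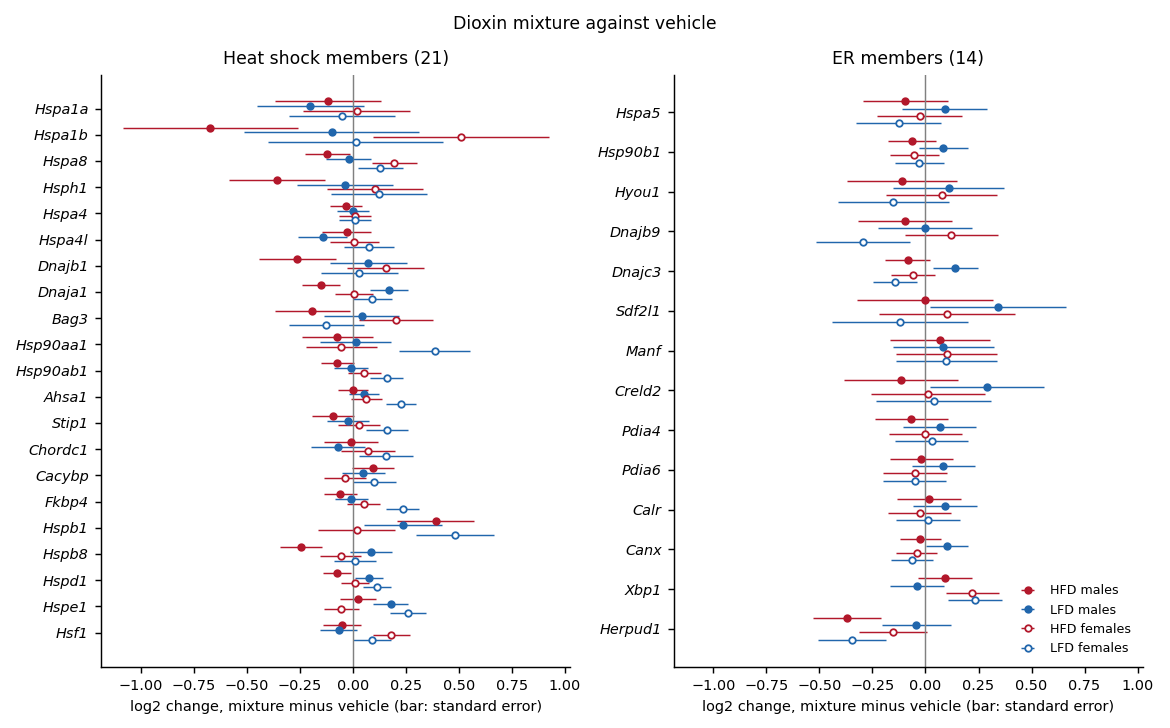
Log2 change with the dioxin mixture (mixture minus vehicle) for the same members, with standard errors, in HFD and LFD males (filled red and blue) and in HFD and LFD females (open red and blue). No member passed the test in any stratum, and most points lie within 0.25 of 0.

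Members were also compared by how they deviated from their group means across the 48 livers, which removes diet, sex and exposure. The median Pearson r was 0.75 over the 91 pairs of ER members, 0.37 over the 210 pairs of heat shock members and 0.37 over the 294 mixed pairs, against 0.03 over all pairs of genes tested. All ER pairs had a positive r. Replicate 1 of the LFD vehicle females held the highest level of 13 of the 14 ER members, and the medians were not computed without it. The livers share library size scaling and the RNA of 1 tissue, and genes are not independent replicates, so these medians are descriptions. For 7 chosen pairs a permutation test over the 48 livers was made, adjusted over the 7. Hspa5 followed Hsp90b1 (r = 0.88, Spearman's rho = 0.82) and Sdf2l1, a partner of ER Hsp40s (r = 0.81, rho = 0.76). Hspa1b followed Dnajb1 (r = 0.81, rho = 0.80), Hspa8 followed Hsph1 (r = 0.79, rho = 0.82) and Hspa1a followed Hspa1b (r = 0.69, rho = 0.69). For these 5 pairs the permutation p for r and for rho was 1e-05 each, the smallest that 100000 permutations can give, and 1.4e-05 adjusted. Of the 75-base words of Hspa1a, 52.7% also occur in Hspa1b, and 55.8% of those of Hspa1b occur in Hspa1a. How such reads were assigned is not known, so the p-value of that pair cannot tell shared variation from shared reads.

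Both pairs chosen across the lists had a lower r than the 5 pairs chosen within them, whereas the median over all mixed pairs was no lower than that over heat shock pairs. Hspa1b with Hspa5 gave r = 0.47 (permutation p = 0.00069, adjusted 0.000805) and rho = 0.41 (permutation p = 0.00368, adjusted 0.00368). Hspa8 with Hspa5 gave r = 0.42 (permutation p = 0.00278, adjusted 0.00278) and rho = 0.42 (permutation p = 0.0028, adjusted 0.00327). Without the 2 livers farthest from the median of the first gene, r lay between 0.39 and 0.84 over the 7 pairs. The most alike members of all were Sdf2l1 and Pdia6 (r = 0.96) and Hspa5 and Hyou1 (r = 0.95). Hspb8 and Hspe1 had the lowest median r to the other heat shock members, at 0.02 and 0.11, followed by Dnaja1 (0.21), Hsf1 (0.22) and Hspd1 (0.23). Herpud1 stood apart in the ER list at 0.22, against 0.53 for the next lowest, Xbp1. With the ER members Hspe1 had a median r of -0.19. Hspd1 and Hspe1, which share the element printed above, gave r = 0.15 with each other.

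**Figure D5:**
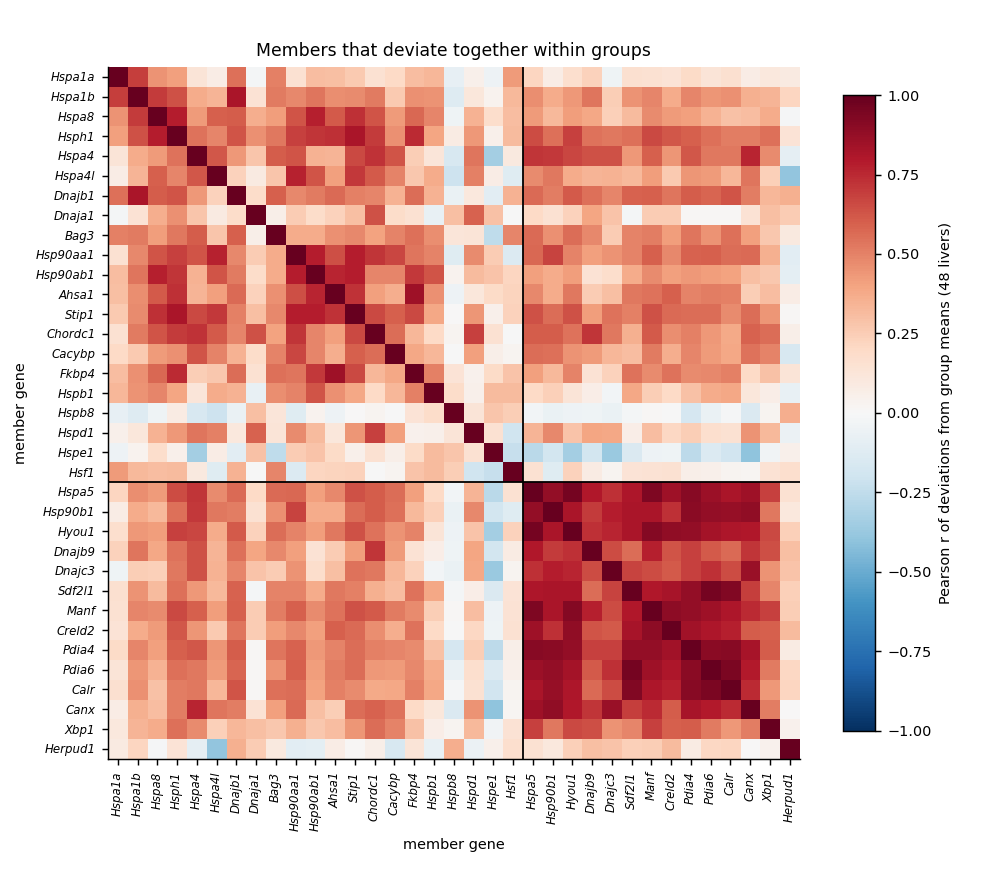
Pearson r between members of their deviations from group means over 48 livers, heat shock members first and ER members last, with black lines between the lists and colour from -1 (blue) to 1 (red). The ER block is uniformly red apart from Herpud1. Hspb8, Hspe1 and Herpud1 show pale rows, and Hspe1 has mostly negative r with the ER members.

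Other genes of both pathways, from lists that exclude the members, were counted in the same fits. Of 43 other cytosolic and mitochondrial chaperone genes tested, 25 rose and 0 fell on the HFD in males given the mixture, beside 31.7% of all genes higher and 6.92% lower, and 22 rose and 1 fell in vehicle males, beside 25.6% and 5.82%. In females 5 rose and 4 fell with the mixture, and 11 rose and 4 fell with vehicle, beside 11.5% of all genes higher and 7.74% lower with the mixture and 14.4% and 13.5% with vehicle. In the mean over 4 strata the smallest adjusted p-values belonged to Hsbp1, a binding partner of HSF1 (0.51), the ribosome-linked Hsp70 Hspa14 (0.38), the Hsp90 co-chaperone Ptges3 (0.35) and the Hsp70-interacting St13 (0.25), all higher on the HFD, with adjusted p of 2.93e-16, 5.75e-11, 8.68e-11 and 4.38e-09. Of 53 other ER folding, export and stress genes, 10 rose and 5 fell in males given the mixture and 7 rose and 5 fell in vehicle males. In females 3 rose and 5 fell with the mixture, and 3 rose and 18 fell with vehicle. These counts stand beside the same shares of all genes, among them 31.7% higher in males given the mixture and 13.5% lower in vehicle females. In the mean these were led by Sec62, of the translocon (0.28), the disulfide isomerase P4hb (0.32) and the ER immunophilin Fkbp2 (0.26), all higher, and the ER cyclophilin Ppib (-0.25), lower, with adjusted p of 1.48e-11, 3.94e-09, 9.97e-07 and 7.11e-07.

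Between the sexes, 6 of the 43 were higher in males and 10 lower in the mean over 4 strata, beside 12.2% and 19% of all genes, led by Cct4, a subunit of the cytosolic chaperonin (-0.24), Ptges3 (-0.21), the glucocorticoid-responsive immunophilin Fkbp5 (-1.05) and St13 (-0.16), all lower in males, with adjusted p of 3.72e-09, 1.82e-05, 4.26e-05 and 4.88e-05. Of the 53, 13 were higher and 4 lower, led by the ER immunophilin Fkbp11 (0.91), the degradation lectins Edem1 (-0.34) and Edem2 (0.28) and the signal peptidase subunit Sec11c (0.27), with adjusted p of 7.76e-10, 3.65e-07, 9.76e-07 and 1.68e-05. None of the 43 or of the 53 was called for the mixture in the mean by limma, with 10 and 3 at an unadjusted p under 0.05, beside 11.7% of all genes.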

How the data were processed

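Mouse livers gave 48 poly(A) RNA libraries, 6 in each of 8 groups. Per the labels' protocols, a Qiagen RNeasy kit was used for extraction, followed by pre-made Azenta libraries. The submitters' processing notes list FastQC, Trimmomatic 0.36, STAR 2.5.2b, DESeq2 and build GRCm38 without saying what each did, and no source at hand names the read counter, the annotation or the strand setting. The authors deposited TPM per library, which sums to 1000000 in each and keeps no depth, so no detection limit was computed.

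Values were taken as log2(TPM + 1), which understates changes of low genes. The 15820 of 49315 genes that reached 1 TPM in 6 or more libraries were fitted with limma 3.58.1 in R 4.3.3 (empirical Bayes, intensity trend), with 8 group means and 40 residual degrees of freedom. There were 20 comparisons, each adjusted by the Benjamini-Hochberg method over all genes, with a threshold of 0.05. The fit was tested on simulated data. Alternatives were TMM scaling, no filter, a pseudocount of 0.1, only the groups compared, a replicate block, no intensity trend and fewer libraries. Leaving out 6 libraries, or each library in turn, was chosen after seeing the data. The members, pathway lists and markers were chosen with earlier results of these data known. Named genes were all members called, the 2 of each list with the smallest p in each mean over 4 strata, Hspa1a, Hspa1b, Hspa5, and the 4 other pathway genes of each list with the smallest adjusted p. Promoters were RefSeq windows on GRCm38.p6, and gene positions are 1-based from GENCODE M21 on GRCm38.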

Additional observations from a re-analysis of the deposited data

Results flagged for a closer look

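In 11 of 280 combinations of a member and a group, 1 library stood apart by Dixon's criterion for 6 values, where chance flags about 1 in 20. On the heat shock side, Hspa4l was highest, at 10.3 TPM, in LFD mixture female 3, which also held muscle and adrenal transcripts. Hsp90aa1 was highest in replicate 5 of the LFD vehicle males (91.1 TPM), Chordc1 in replicate 1 of the HFD vehicle females (18.8 TPM) and Hsf1 in replicate 3 of the LFD vehicle females (28.3 TPM). Cacybp was lowest in replicate 6 of the LFD vehicle females (24.4 TPM). On the ER side, Hspa5 was highest in LFD mixture male 1 (496 TPM) and Dnajb9 in HFD mixture male 3 (103 TPM). Replicate 1 of the LFD vehicle males was lowest for 4 ER members at once, with Hsp90b1 at 329 TPM, Pdia4 at 142 TPM, Pdia6 at 123 TPM and Canx at 140.3 TPM.

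The diet effect differed between the sexes by the interaction test in 19 members with vehicle, in 13 with the mixture and in 22 in the mean of both. The mean differences, as log2 change in males minus that in females, were 1.71 for Hspb1, 1.49 for Hspa1b, 1.45 for Hsph1, 1.18 for Hsp90aa1, 0.98 for Chordc1, 0.83 for Hspa1a, 0.83 for Bag3, 0.77 for Stip1 and 0.61 for Hsp90ab1. Smaller ones were 0.59 for Hspa8, 0.58 for Dnaja1, 0.56 for Cacybp, 0.55 for Hspa4l, 0.54 for Hspb8, 0.43 for Hspa4, 0.35 for Ahsa1 and 0.28 for Hsf1. The ER members had 1.17 for Creld2, 0.86 for Hyou1, 0.70 for Manf, 0.65 for Hspa5 and 0.43 for Dnajc3.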

How the results depend on the processing

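Counts of members called moved by over 1.5 times as follows, and the cause was not tested. For the diet in vehicle females, 7 in place of 11 were called with no filter on low values, and 7 to 12 when 1 library was left out. In females given the mixture, 8 in place of 5 were called with TMM scaling, 3 with no filter, 3 without the 3 libraries rich in muscle transcripts and 3 without 6 such libraries, and 2 to 9 when 1 library was left out. Between the sexes on the HFD with the mixture, 5 in place of 3 were called without the 3 libraries and 1 to 4 when 1 library was left out. The diet effect with the mixture differed between sexes in 8 members in place of 13 with TMM scaling. Hspd1 in males given the mixture reversed to -0.0141 with TMM scaling. The other counts over all 35 members stayed within 1.5 times of the main ones. Of 234 counts above 0 by list and direction, 44 moved by more, 15 of them with TMM scaling. That scaling gave 10 in place of 16 heat shock members higher between diets in males given the mixture, 9 in place of 4 ER members lower in the diet mean, 8 in place of 13 heat shock members lower in LFD vehicle males than females, and 2 in place of 5 ER members in the mean difference of the diet effect. For that difference with vehicle, the 4 ER members were 2 with TMM scaling, with no filter and with only the groups compared. In vehicle females the 4 ER members lower were 2 with only the groups compared, and the 3 heat shock members lower were 1 with no filter. In females given the mixture the 3 ER members lower were 1 with no filter and 0 without the 3 or the 6 libraries. The other 31 of these counts were at most 2 as reported and moved by at most 2. Over all members and comparisons, TMM scaling ended 39 of 185 calls and added 15, no filter ended 24 and added 0, leaving out the 3 libraries ended 9 and added 8, the 6 libraries 9 and 10, the pseudocount of 0.1 ended 1 and added 2, and the replicate block 0 and 14. With only the groups compared, 16 of 126 calls ended and 5 were added. Fits with only the groups compared were not run for the means over 4 strata.

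Over all groups the replicate numbers showed little pairing: deviations of same-numbered libraries had a median r of 0.0131, against -0.00505 for different numbers. Between LFD females with mixture and with vehicle, 4 of the 6 same-numbered pairs had r over 0.1, with a highest r of 0.44. Between the diets in vehicle females 4 of 6 did, with a highest r of 0.17. With the replicate block, 18 members were called between diets in males given the mixture, 22 in vehicle males, 7 in females given it and 11 in vehicle females, in place of 17, 21, 5 and 11, and the mixture called 0. TPM keeps no depth, so the precision of low genes such as Hspa1a is unknown.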
